A study of Mus musculus with 4 samples.

Results

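The region described here is the stretch of mouse chromosome 17 from 33 to 38 Mb, chr17:33000001-38000000 of build mm8, which carries the major histocompatibility complex, called H2 in the mouse. It was taken whole, as its 1000 consecutive bins of 5 kb, with no bin picked by its values. In 984 of these bins at least 1 library had a read, against 469391 such bins on all autosomes, and the 5 Mb on either side served as flanks. Histone H3, part of every nucleosome, had been precipitated whatever its modifications from mouse cells and the DNA sequenced (ChIP-seq). The 4 groups were embryonic stem (ES) cells of the V6.5 line left untreated, the same line given SB431542, which blocks signalling by TGF-beta receptors, at 10 uM for 24 h, C2C12 cells 48 h into differentiation to myotubes, and 38B9 pro-B cells. Both ES groups were labelled C57BL/6-129 in background and had been taken off their feeder cells before use, and apart from SB431542 all cells were in their usual media. C2C12 is a myoblast line that was derived from C3H mice, and each cell type stands for a single line. Total H3 marks no cell type, so the labelled cell types could not be checked against markers.

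Each group had 1 library, so no difference below has a replicate check. Distinct positions of reads with 1 genomic place (1 read per position and strand) numbered from 13102915 to 13852985 per library and are called reads below. Counts per bin are given unscaled, and every ratio is scaled to the autosomal reads of each library. Intervals are exact 95% intervals and cover counting error only, not variation between cultures or preparations. PCR copies of 1 molecule at the same position and strand count once among these reads. Lines of reads with 2 places, given further below, were not reduced in this way. Without molecular identifiers PCR copies may be among them, which would make their intervals too narrow. No input library was used here, so the number of DNA copies and the H3 recovered per copy cannot be told apart. A locus that differs from the C57BL/6 sequence of mm8 by more mismatches than the aligner allowed also gives no read, and that cannot be told apart from an absent locus. The file headers name 1 run for 3 libraries and another for SB431542, whose effect and that of the run cannot be told apart.

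The H2 complex encodes the class I and class II molecules that present peptides to T cells, the transporter and proteasome subunits that supply those peptides, and, between them, complement components and cytokines of the class III part. Its class I genes form families of close copies, the H2-K, H2-D, H2-Q, H2-T and H2-M genes, which arose by duplication. The complex is known for differing in sequence and in gene number between inbred strains, whose combinations of alleles are called haplotypes.

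The likeness between class I copies decides which reads can be placed, so promoters are shown first. The annotation at hand (RefSeq, GRCm38.p6) is of another build than the reads, so its names and sequences are given without positions and no gene was placed on a bin. It lists 50 symbols beginning with H2- on chromosome 17, of which 38 are protein-coding, and 32 of them had a promoter in the table, taken as the 250 bases before the start. Of these 32 promoters 16 (50%) shared a 36-base word, the length of the aligner's seed, on either strand with another gene's promoter. In 13 of them the other gene was also an H2 gene, of the class I families. The remaining 3 were H2-DMa, a class II gene that shared words with Brd2, H2-T22 with Gm6034, and H2-Q2 with Gm10499 and Gm8909. Over all genes, 5374 of 27025 promoters did so (19.9%), and both counts include neighbouring genes whose promoters overlap. H2-K1 and H2-D1 encode classical class I heavy chains, and H2-Q6 and H2-Q7 belong to the H2-Q family. Capitals mark the bases inside 36-base words shared with another promoter.
H2-K1: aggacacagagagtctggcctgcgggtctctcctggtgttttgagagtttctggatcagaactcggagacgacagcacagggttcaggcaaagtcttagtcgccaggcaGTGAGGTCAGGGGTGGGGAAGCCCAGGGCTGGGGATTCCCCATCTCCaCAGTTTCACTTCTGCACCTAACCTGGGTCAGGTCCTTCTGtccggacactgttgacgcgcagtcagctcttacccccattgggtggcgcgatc
H2-D1: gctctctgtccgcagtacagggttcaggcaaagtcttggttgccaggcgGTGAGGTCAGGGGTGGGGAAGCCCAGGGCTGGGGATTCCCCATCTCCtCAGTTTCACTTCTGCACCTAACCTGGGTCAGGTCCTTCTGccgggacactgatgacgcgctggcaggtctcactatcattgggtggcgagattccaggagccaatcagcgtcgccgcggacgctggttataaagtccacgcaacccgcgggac
H2-Q6: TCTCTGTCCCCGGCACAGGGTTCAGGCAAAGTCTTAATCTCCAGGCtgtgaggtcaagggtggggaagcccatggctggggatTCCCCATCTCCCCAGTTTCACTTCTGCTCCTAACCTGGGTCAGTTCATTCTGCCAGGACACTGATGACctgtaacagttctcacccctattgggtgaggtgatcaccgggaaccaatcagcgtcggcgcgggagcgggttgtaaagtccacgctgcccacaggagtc
H2-Q7: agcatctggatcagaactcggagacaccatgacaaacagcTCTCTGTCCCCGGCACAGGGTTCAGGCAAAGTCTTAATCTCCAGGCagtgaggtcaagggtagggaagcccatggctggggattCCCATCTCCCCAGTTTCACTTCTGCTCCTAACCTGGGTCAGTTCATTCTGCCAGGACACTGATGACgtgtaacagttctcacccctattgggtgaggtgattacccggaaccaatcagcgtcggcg
The H2-K1 and H2-D1 promoters shared 17 words with each other, which covered 87 bases of each. In H2-Q6 the words shared with H2-Q7 or H2-Q10 covered 114 bases, and in H2-Q7 those shared with H2-Q6 or H2-Q10 covered 112 bases. A read that falls wholly within such a shared word has at least 2 places and is missing from the reads with 1 place. Lines of reads with 2 places were therefore kept apart, and they are given beside the main loci. Reads with more than 2 places are in neither set. Exact words also miss copies that differ by no more than the mismatches the aligner allowed.

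H3 reads over the H2 region were fewest in myotubes and most in pro-B cells. The region held 23522 reads in untreated ES cells, 23580 with SB431542, 19572 in myotubes and 25349 in pro-B cells. Against untreated ES cells the scaled ratio was 0.879 in myotubes (0.862 to 0.896), 1.09 in pro-B cells (1.07 to 1.11) and 0.977 with SB431542 (0.960 to 0.995). The myotube value was below both flanks, where myotubes stood at 0.942 on the lower side and at 1.10 on the upper side. Pro-B cells were at 1.07 in the lower flank and 1.00 in the upper one, so the region's pro-B ratio lay near that of the lower flank. Scaled to the flanks in place of the autosomes, the region had a ratio of 0.875 in myotubes (0.858 to 0.892) and 1.04 in pro-B cells (1.02 to 1.06). Over all of chromosome 17 the myotube ratio was 0.998 and the pro-B ratio 1.05.

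Along the region the lower myotube level ran through the first 4 Mb and the pro-B level changed sides. The myotube level was as low in most of the lower flank, where the megabases starting at 28, 29, 31 and 32 Mb had ratios of 0.844, 0.887, 0.880 and 0.868, and the one starting at 30 Mb, at 1.215, raised the flank's value. In myotubes the ratio to untreated ES cells was 0.865, 0.851, 0.861 and 0.822 in the megabases starting at 33, 34, 35 and 36 Mb, and 1.02 in the last one. In pro-B cells it was 1.19 and 1.28 in the megabases starting at 33 and 34 Mb, 1.05 in the next, 0.840 in the one starting at 36 Mb and 1.10 in the last. The SB431542 library stayed between 0.937 and 1.06 in all 5. Density over the region, relative to the flanks of the same library, was 0.898 in untreated ES cells, 0.892 with SB431542, 0.786 in myotubes and 0.934 in pro-B cells.

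**Figure D1:**
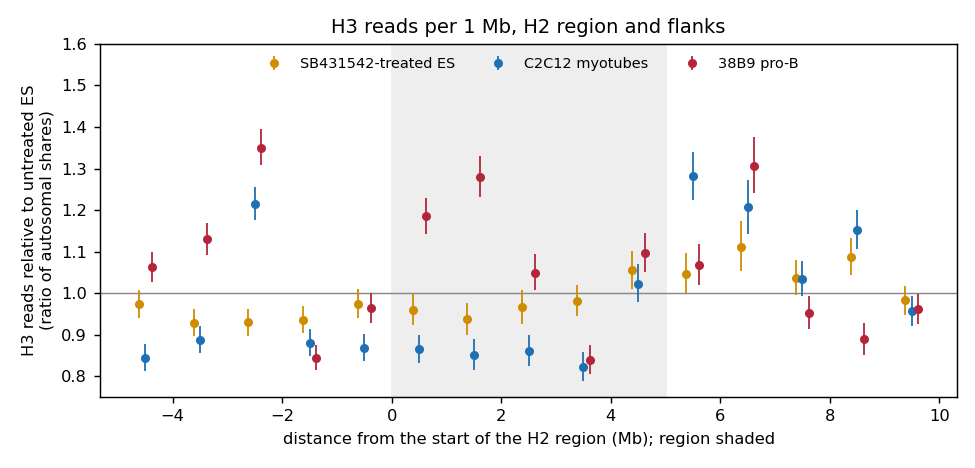
Ratio of the scaled H3 reads of each library to untreated ES cells (y axis, ratio, with 95% intervals of counting error) in each megabase of the region and its flanks (x axis, distance in Mb from the start of the region). Myotubes lie below 1 in the first 4 megabases of the region, as they do in 4 of the 5 megabases of the lower flank, and pro-B cells reach 1.28 in the second megabase of the region and 1.35 in the lower flank.

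Single bins were compared where the mean over the 4 libraries was at least 10 scaled reads, which 826 of the 1000 bins passed. The other 174 bins included 16 without a read in any library. A bin was called 2-fold when its log2 ratio, with 0.5 reads added, was 1 or more in size. Against untreated ES cells, 41 of 826 bins were lower in myotubes (4.96%) and 5 were higher (0.605%), while among other autosomal bins 2.21% were lower and 1.57% higher. In pro-B cells 51 bins were higher (6.17%) and 31 lower (3.75%), beside 3.63% and 4.3% of other autosomal bins. The SB431542 library had 7 bins higher (0.848%) and 9 lower (1.09%), close to its background of 0.812% and 0.84%. Between myotubes and pro-B cells, 95 bins were lower in myotubes (11.5%) and 18 higher (2.18%), beside 4.51% and 4.44% elsewhere. In the lower flank 58 of 975 bins were higher in pro-B cells than in untreated ES cells and 35 lower. In the upper flank these were 20 and 26 of 784. Higher bins in pro-B cells were thus not particular to the region. Myotubes against untreated ES cells had 28 lower and 18 higher bins in the lower flank, and 13 and 31 in the upper. Against pro-B cells they had 70 lower and 12 higher in the lower flank, and 21 and 46 in the upper. The comparisons with untreated ES cells share that library. The median log2 ratio over the region's bins was -0.15 in myotubes and 0.05 in pro-B cells against untreated ES cells, where all autosomal bins had -0.01 and -0.08. With SB431542 it was -0.04 in the region and 0.00 over all autosomal bins, and for myotubes against pro-B cells it was -0.18 and 0.07.

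Bins missing in 1 line were those with no read in that line and at least 10 in each library of the others. C2C12 lacked 5 of the 774 bins that could be called (0.646%), against a background of 0.0247% of other autosomal bins. 38B9 lacked 1 of 762 bins (0.131%), against 0.00947%. V6.5 lacked none of 771, and none elsewhere on the autosomes (0%). The lines are not compared alike here, since V6.5 had to be empty in both of its libraries. Its labelled background also includes the C57BL/6 of mm8. Without the SB431542 library V6.5 still had 0 missing bins in the region. Neither flank held a missing bin for any line. Depleted bins, at most 0.25 of the lowest library of the other lines with at least 10 reads there, numbered 6 of 753 in C2C12 (0.797%) and 4 of 749 in 38B9 (0.534%), the missing bins included. Their backgrounds were 0.0425% and 0.0376%, and V6.5 had 0 of 760 beside 0%. With lines of reads with 2 places pooled in, no bin was missing in C2C12 or 38B9, and 8 were depleted in C2C12 and 0 in 38B9. With 20 reads asked of the other lines, C2C12 had 2 missing and 3 depleted bins and 38B9 had 0 of either. In the flanks the only depleted bin was 1 of the upper flank in 38B9. The last depleted bin inside the limit lay at 0.151 of the lowest other library in C2C12 and 0.168 in 38B9, and the next bins outside it at 0.352 and 0.329. Among 460 other autosomal windows of 5 Mb, 3 had as many bins missing in C2C12 and 19 as many missing in 38B9. For depleted bins these numbers were 3 in C2C12 and 7 in 38B9.

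**Figure D2:**
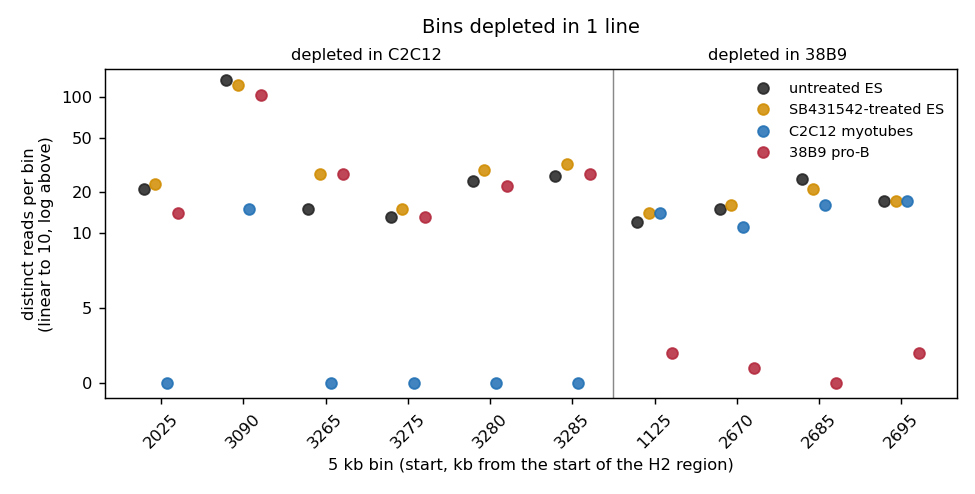
Reads per 5 kb bin (y axis, distinct reads with 1 place, linear to 10 and logarithmic above) in each of the 4 libraries (points) for the bins depleted in 1 line (x axis, bin start in kb from the start of the region). Myotubes have no read in 5 of the 6 bins depleted in C2C12, and pro-B cells have 0 to 2 reads in the 4 bins depleted in 38B9.

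The stretch without C2C12 reads that held the most reads in the other libraries lay in the fourth megabase of the region. The bins chr17:36265001-36270000, chr17:36275001-36280000, chr17:36280001-36285000 and chr17:36285001-36290000 had no read in myotubes. In the last of these bins untreated ES cells had 26 reads, the SB431542 library 32 and pro-B cells 27, and in the other 3 bins the counts of those libraries were 13 to 29. Drawn to the nearest myotube reads after the bins had been seen, the empty stretch ran over chr17:36262966-36293325, 30.4 kb. It held 95 reads in untreated ES cells, 129 with SB431542, 0 in myotubes and 109 in pro-B cells. The upper limit of the scaled myotube ratio to untreated ES cells was 0.0418 there. Lines of reads with 2 places did not vanish from the stretch, with 65, 68, 24 and 59 in the same order of libraries. These lines can also be placed at their other copy. When both kinds of line were pooled, 9.19 kb of it, chr17:36267387-36276577, still had no line in myotubes, beside 13, 24 and 24 in the other libraries.

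A single 1 kb window carried most of the sixth depleted bin of C2C12. The bin chr17:36090001-36095000 had 134 reads in untreated ES cells, 122 with SB431542, 15 in myotubes and 104 in pro-B cells. Its window chr17:36092001-36093000 held 110, 107, 3 and 83 of these, where the median 1 kb window of the region held 4 reads in every library. It was the highest window of the region in both ES libraries and in pro-B cells, while the highest myotube window of the region held 19 reads elsewhere. The scaled myotube ratio in the window was 0.0288 (0.00585 to 0.0864). The 3 myotube reads were near the myotube median of 4, so the window stood out by the pile of reads in V6.5 and 38B9, which myotubes did not show. Before repeats at 1 position and strand were removed, the window held 188, 225, 3 and 146 reads, so many repeated a position. Over whole libraries repeats were 2.8% to 5.5% of the reads with 1 place. The cause of the repeats was not tested. The window held lines of reads with 2 places at 41, 41, 0 and 23.

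The 7 empty stretches of the region were drawn by 1 rule, at least 5 kb without a read in a line and at least 10 reads in each other library. C2C12 had 4 of them, 0.8 per Mb, against 0.0622 per Mb on the rest of the autosomes, where it had 146. 38B9 had 3, or 0.6 per Mb, against 0.0528 per Mb and 124 elsewhere. V6.5, which again had to be empty in both libraries, had none in the region or elsewhere. With lines of reads with 2 places pooled in, 1 stretch was left in C2C12 and 0 in 38B9, and with 20 reads asked of the other libraries there were 2 and 0. The flanks held 3 such stretches in C2C12 and none in 38B9. A second C2C12 stretch, chr17:34110240-34119883, held 40 reads in untreated ES cells, 27 with SB431542, 0 in myotubes and 10 in pro-B cells, so pro-B cells were also low. A shorter one, chr17:34948791-34956264, held 16, 29, 0 and 11 reads. The last, chr17:34990808-35033808, spanned 43 kb with only 27, 30, 0 and 24 reads and contained the fifth missing bin, chr17:35025001-35030000, at 21, 23, 0 and 14. The upper limits of the scaled myotube ratio to untreated ES cells were 0.102, 0.274 and 0.155 in these 3 stretches. Counts of lines with 2 places were 47, 46, 29 and 26 in the first, 33, 30, 19 and 34 in the second, and 478, 534, 113 and 369 in the last.

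The depleted bins of 38B9 were grouped in another place. Its missing bin, chr17:35685001-35690000, had 25 reads in untreated ES cells, 21 with SB431542, 16 in myotubes and 0 in pro-B cells, and its lines with 2 places were 14, 27, 7 and 8. The bin chr17:35670001-35675000 had 15, 16, 11 and 1 reads, and chr17:35695001-35700000 had 17, 17, 17 and 2. All 3 fell within or at the edge of chr17:35671693-35719182, 47.5 kb that began and ended with an empty stretch. There untreated ES cells had 122 reads, the SB431542 library 105, myotubes 73 and pro-B cells 9, a scaled pro-B ratio of 0.0744 (0.0332 to 0.146). Its final 14.3 kb held 31, 20, 10 and 0 reads. Pro-B counts stayed low past its end, so the 47.5 kb is not the full extent. The bin chr17:35720001-35725000 had 11, 17, 8 and 1 reads, and chr17:35725001-35730000 had 13, 15, 4 and 2. Lines of reads with 2 places were 173, 188, 102 and 97 over the same 47.5 kb, a pro-B ratio of 0.582, so they fell less than the reads with 1 place. The fourth depleted bin, chr17:34125001-34130000, lay apart from these with 12, 14, 14 and 2 reads.

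**Figure D3:**
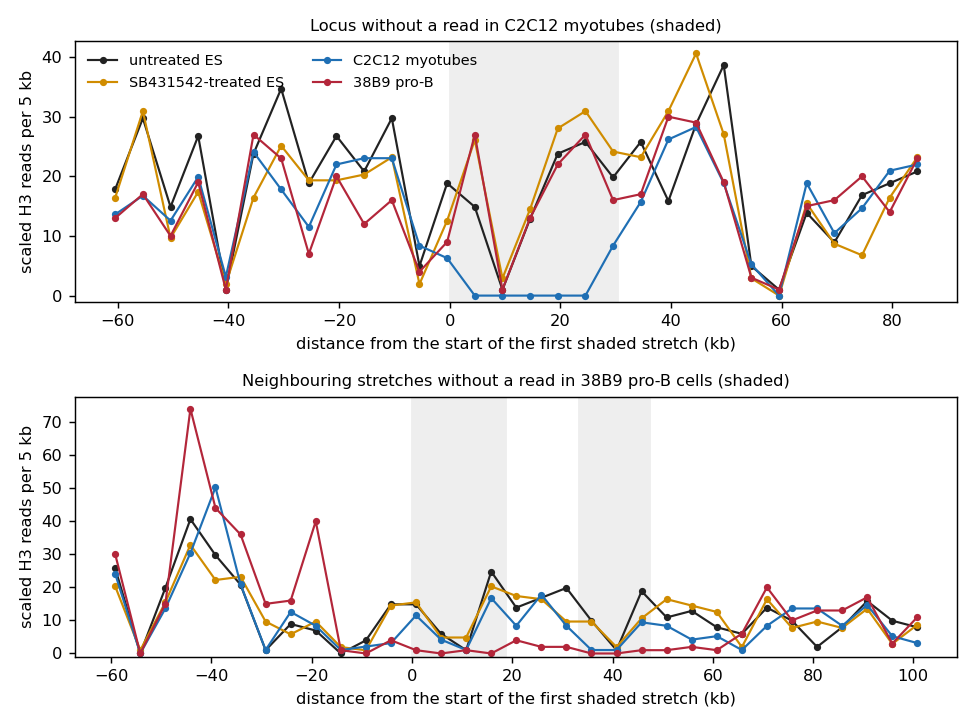
Scaled H3 reads per 5 kb bin (y axis) in the 4 libraries (lines) around the 30.4 kb stretch empty in C2C12 (top) and the stretches empty in 38B9 (bottom), against the distance in kb from the start of the first shaded stretch (x axis). Myotubes are at 0 through the upper shaded stretch except at its edges, and pro-B cells lie near 0 across the 47.5 kb of the lower one.

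Bins low in both other lines did not count as depleted in either. No rule was set for them, so 3 are given as examples by their values. Untreated ES cells had 21 and 20 reads in the neighbouring bins chr17:34110001-34115000 and chr17:34115001-34120000, and the SB431542 library 17 and 13. Myotubes had 1 and 2 reads there, and pro-B cells 5 and 7. In the bin chr17:35340001-35345000 the counts were 15, 17, 4 and 5. All 3 bins thus had both V6.5 libraries above the C2C12 and 38B9 libraries. They are not the full set. The bin chr17:36705001-36710000, with 14, 17, 4 and 6 reads, and chr17:35160001-35165000, with 39, 26, 13 and 14, had the same order.

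Lines of reads with 2 places were dense in this region, and they were fewest in myotubes. The region held 6783 such lines in untreated ES cells, 6834 with SB431542, 4864 in myotubes and 6491 in pro-B cells. Of 460 other windows of 5 Mb, 10 held as many or more of these lines in untreated ES cells. Scaled to the autosomal lines, the ratio to untreated ES cells was 0.760 in myotubes (0.722 to 0.801), 0.994 in pro-B cells (0.947 to 1.04) and 0.946 with SB431542 (0.902 to 0.992). Intervals for these lines rest on the number of lines divided by 2, since a read gives 2 lines. Reads with only 1 of their places in the segment are thus undercounted in the intervals. In the flanks the myotube ratio was 0.960 on the lower side and 1.21 on the upper side. The third megabase of the region, which starts at 35 Mb, had the lowest myotube value, 1313 lines beside 2432 in untreated ES cells, a ratio of 0.572 (0.519 to 0.629). Runs of bins rich in these lines numbered 31, and myotubes were below untreated ES cells in 27 of them, the SB431542 library in 19 and pro-B cells in 19. Of the 174 bins with too few reads with 1 place to be compared, 65 had a mean of at least 10 such lines.

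The richest run, chr17:34990001-35075000, was a tandem block of 2 copies. Pairs were counted between any 2 lines with 2 places on the same strand over 1000 bp apart, whether or not from 1 read. The most frequent distance in untreated ES cells was exactly 45200 bp. In the block it had 188 pairs in untreated ES cells, 193 with SB431542, 37 in myotubes and 158 in pro-B cells. Over the region, distances within 50 bp of it had a median of 11, 12, 3 and 9 pairs in the same order. Further pairs in the region lay at 45206 bp, with 59, 73, 20 and 68. There were 46, 61, 12 and 36 at 45195 bp, and 35, 25, 8 and 12 at 45198 bp. In untreated ES cells the unrelated distances of 58666 and 1183 bp, with 36 and 35 pairs, were as frequent as 45198 bp. The lines paired at 45200 bp spanned chr17:34993693-35026443 in the first copy and chr17:35038893-35071643 in the second. Lines in the first and the second copy were 401 and 398 in untreated ES cells, 460 and 437 with SB431542, 99 and 96 in myotubes, and 325 and 314 in pro-B cells. The likeness of both counts follows from how the lines are listed, since a read with 2 places is written at each of them. Reads with 1 place were at most 15 per copy in each library, which left little sequence that tells the copies apart. Over the whole run the lines numbered 944, 1048, 229 and 728, which gave a ratio of 0.257 in myotubes (0.207 to 0.315), 0.801 in pro-B cells (0.697 to 0.921) and 1.04 with SB431542. The block contained the 43 kb stretch in which myotubes had no read with 1 place.

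Within the block myotubes were low throughout, and pro-B cells were low at its head. Over the first 10 kb, chr17:34990001-35000000, the lines were 115 in untreated ES cells, 128 with SB431542, 30 in myotubes and 50 in pro-B cells. The pro-B ratio to untreated ES cells was 0.452 there and 0.915 in the remaining 30 kb of that copy. The second copy gave 0.419 and 0.931, from largely the same reads. The myotube ratio was 0.277 and 0.246 in the first copy and 0.267 and 0.26 in the second.

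**Figure D4:**
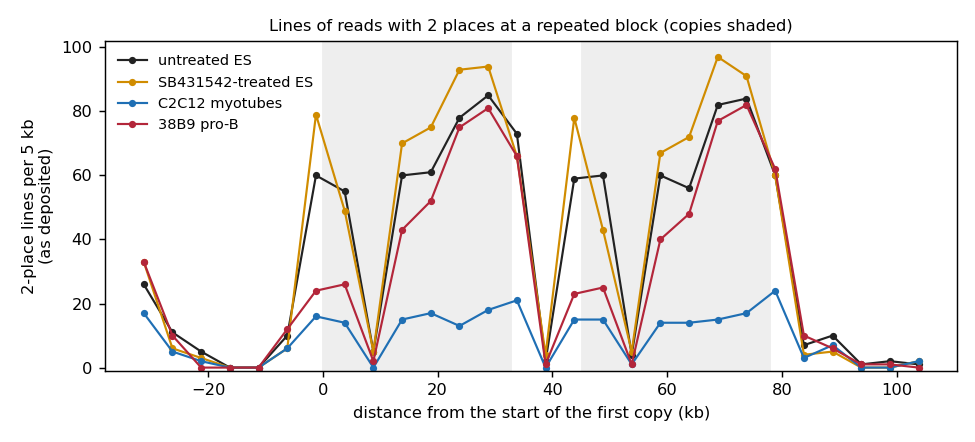
Lines of reads with 2 places per 5 kb bin (y axis) in each library over the tandem block (x axis, distance in kb from the start of the first copy, copies shaded). Both copies show the same profile 45.2 kb apart, with myotubes lowest along the block at a ratio of 0.257 to untreated ES cells.

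Raised bins were the mirror of the depleted ones, at least 2-fold above the highest library of the other lines with at least 20 scaled reads. Pro-B cells had 26 of 984 bins raised (2.64%), against 1.21% of other autosomal bins, and 18 and 6 in the lower and upper flank. V6.5 and C2C12 had none in the region, where their backgrounds were 0.106% and 0.123%. Of 460 other windows of 5 Mb 48 had as many bins raised in 38B9, so this number was less unusual among windows than the missing bins of C2C12. Of the 26 bins 16 lay in the second megabase, which starts at 34 Mb. The last raised bin inside the limit stood at 2 times and the next one at 1.99 times the highest other library.

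A cluster in that megabase held 12 of the raised bins within 22 consecutive ones, chr17:34800001-34910000. The 110 kb had 557 reads in untreated ES cells, 555 with SB431542, 451 in myotubes and 1253 in pro-B cells. Pro-B cells were 2.27 times untreated ES cells (2.05 to 2.51), 2.34 times the SB431542 library (2.11 to 2.59) and 2.65 times myotubes (2.38 to 2.96). Its bin chr17:34865001-34870000 rose the most, with 19, 26, 18 and 86 reads. Other bins of the cluster reached 80 reads in pro-B cells at chr17:34840001-34845000 and 42 at chr17:34870001-34875000, beside 21 and 10 in untreated ES cells. The cluster had lines of reads with 2 places at 92, 84, 86 and 191. At chr17:34885001-34890000 the myotube count was low as well, with 18, 8, 3 and 27 reads.

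Outside that cluster the raised bins were scattered over 10 shorter places. At chr17:33955001-33965000 the counts were 57, 42, 48 and 167, a pro-B ratio to untreated ES cells of 2.96 (2.18 to 4.07). At chr17:34650001-34660000 they were 60, 57, 46 and 159, a ratio of 2.67 (1.98 to 3.66). The highest single ratio, 5.77 (2.56 to 15.3), came from few reads at chr17:35650001-35655000, where untreated ES cells had 7, the SB431542 library 10, myotubes 8 and pro-B cells 40. That bin was also rich in lines with 2 places, at 65, 51, 32 and 98. With these added, its log2 pro-B ratio to untreated ES cells went from 2.44 to 0.95, below the 2-fold limit.

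**Figure D5:**
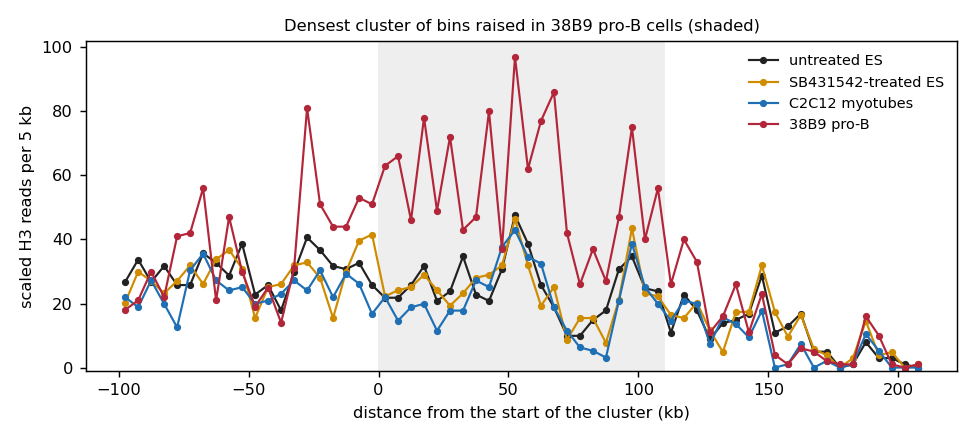
Scaled reads per 5 kb bin (y axis, distinct reads with 1 place) across the cluster of bins raised in pro-B cells (shaded; x axis, distance in kb from its start) for the 4 libraries. Pro-B cells lie above the other 3 libraries in nearly all shaded bins, with 1253 reads in the cluster beside 451 to 557.

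The remaining bins at the ends of each comparison had smaller differences. Myotubes were highest against untreated ES cells at chr17:35905001-35910000, with 9, 10, 23 and 16 reads, a log2 ratio of 1.38 that turned to -0.08 when lines with 2 places were added. Bins lowest in pro-B cells outside the depleted ones included chr17:35205001-35210000, with 39, 33, 29 and 10 reads, and chr17:33310001-33315000, with 29, 26, 30 and 10. Myotubes were above pro-B cells by the most outside the bins already named at chr17:36570001-36575000, with 21, 26, 34 and 13 reads. Bins that differed with SB431542 had log2 ratios from -1.44 at chr17:37575001-37580000, with 22 and 8 reads in the untreated and treated libraries, to 1.39 at chr17:34260001-34265000, with 12 and 33.

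Bins varied among themselves more between lines than within V6.5. For SB431542 against untreated ES cells, the SD of the log2 ratio over the 826 bins was 0.42, the same as counting alone gives. It was 1.47 times the counting value in myotubes against untreated ES cells, 1.56 times in pro-B cells and 1.78 times between myotubes and pro-B cells. Without the depleted bins, over the 816 bins left, these values were 1.15, 1.44 and 1.44. Much of the myotube excess thus came from the few depleted bins. Lower and upper flank gave 1.26 and 1.13 in myotubes, and 1.57 and 1.2 in pro-B cells. Of 460 other autosomal windows, 8 were at or above the region, depleted bins included, for myotubes and 32 for pro-B cells.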

How the data were processed

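Total H3 ChIP-seq was deposited for 4 libraries, 1 per group. Per the file headers, reads were aligned with Bowtie to mm8 (the version is not given in the sources) with options -e 70 -k 2 -m 2 -n 2 -l 36. The authors deposited 1 signed position per line, with no count, score or normalisation, in 2 sections. They are read here as reads with 1 place and reads with 2 places, from the section names, the options and an even number of lines in the second. Among reads with 1 place, repeats at 1 position and strand were counted once. Repeats were kept among lines with 2 places, also where both kinds were pooled, but not in the pairs of the tandem block. Bins of 5 kb were counted and scaled to autosomal totals (Python 3.11.15, numpy 2.4.6, scipy 1.17.1). Totals before removing repeats were 13888026 (untreated ES), 14663315 (SB431542), 13568407 (myotube) and 13817365 (pro-B) reads with 1 place, and 905816, 965918, 870914 and 870574 lines with 2. Ratios have exact conditional binomial intervals, and no test was made with 1 library per group. Calls are rules of size, and their scripts were checked on simulated data. Other windows of 5 Mb were cut from 3 Mb on and had at least 500 bins compared.

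Named are every missing bin, the depleted bins and, from the 5 highest and 5 lowest bins called per comparison among those not yet named, the ones at the ends. The region, the rules and the promoters were chosen with earlier results of these data known. Alternatives were other bin sizes and offsets, other read sets and scalings, other limits, and leaving out the SB431542 library. The windows of 1 kb, the empty stretches, the tandem block and the promoter words were added after the bins had been seen. No gene was placed on mm8, so lists of H2 genes were not analysed here.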

Additional observations from a re-analysis of the deposited data

How the results depend on the processing

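No paired analysis was possible because each group had 1 library. Of 185 values recomputed, 109 stayed close to the reported value and 76 moved beyond its counting interval or by over 1.5 times, and none of 16 ratios crossed 1. With both kinds of line together the region's ratio to untreated ES cells was 0.852 in myotubes and 1.06 in pro-B cells. Scaled to the flanks it was 1.04 in pro-B cells, and 0.841 for myotubes over pro-B cells. Lines with 2 places scaled to the flanks gave 0.663 in myotubes and 0.877 in pro-B cells.

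Counts of bins 2-fold higher and lower with SB431542 were 0 and 2 in bins of 10 kb, 13 and 18 in bins shifted by 2.5 kb, 3 and 4 at a minimum mean of 20, 30 and 35 with no minimum, and 62 and 75 at 1.5-fold, and 5 were lower with both kinds of line. In myotubes against untreated ES cells they were 3 and 19 in bins of 10 kb, 1 and 17 at a mean of 20, 19 and 94 with no minimum, and 45 and 147 at 1.5-fold, and 2 were higher with both kinds of line. In pro-B cells they were 18 and 15 in bins of 10 kb and 143 and 116 at 1.5-fold, with 15 lower at a mean of 20 and 75 lower with no minimum. For myotubes against pro-B cells they were 9 and 45 in bins of 10 kb and 64 and 201 at 1.5-fold, with 10 higher at a mean of 20 and 47 with no minimum. The fewer bins of 10 kb follow in part from there being fewer bins; the cause of the other changes was not tested.

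Bins missing in C2C12 numbered 3 of 10 kb, 2 at 20 reads in the other lines and 0 with both kinds of line. For 38B9 they were 0 of 10 kb, 2 in shifted bins, 2 at 1 read at most, 0 at 20 reads and 0 with both kinds of line. Depleted bins were 3 in C2C12 at 20 reads and 19 at a limit of 0.5. In 38B9 they were 2 in shifted bins, 0 with both kinds of line, 0 at 20 reads and 8 at a limit of 0.5. V6.5 had 1 depleted bin without the SB431542 library. Raised bins in V6.5 were 2 of 10 kb, 4 when shifted, 3 with both kinds of line and 3 without the SB431542 library. C2C12 had 1 raised bin with repeats kept, and 38B9 had 12 of 10 kb and 6 at 3-fold. Empty stretches, whose alternatives were chosen after seeing the data, were 2 in C2C12 at 10 kb or more, 2 at 20 reads and 1 with both kinds of line. In 38B9 they were 0 at 20 reads and 0 with both kinds of line.

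Spread over counting was 1.05 with SB431542 in shifted bins. In myotubes it was 1.93 in bins of 10 kb, 1.36 with both kinds of line and 1.24 at a mean of 20. In pro-B cells it was 1.65 with repeats kept, 2.06 in bins of 10 kb and 1.475 when shifted. Between myotubes and pro-B cells it was 2.18 in bins of 10 kb, 1.65 when shifted, 1.64 with both kinds of line and 1.68 at a mean of 20. Of 49 single bins, 49 kept their direction with repeats kept and when scaled to the flanks; with both kinds of line 43 stayed close, 5 moved, and 1, chr17:35905001-35910000 in myotubes, went to a log2 ratio of -0.08. The limit of 20 reads was already part of the rule for raised bins. A bin with about 20 reads cannot show a difference much under 2-fold, and 0 reads still allow 3.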
